A study of Arabidopsis thaliana with 12 samples.

Results

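Starch metabolism and the sugar transporters of the plastid envelope were examined in rosette leaves of the *Arabidopsis thaliana* mutant melinoe and of wild type. The genes were a fixed list of 33 loci, found in the deposited tables by their locus code, among 25169 genes listed there. They comprised 13 genes of starch synthesis, 14 of starch degradation, 4 plastid transporters and 2 sucrose phosphate synthases. All 33 were listed and all 33 passed the filter on low counts, as did 19424 genes in all. The choice of the genes used no measured value, but it was made with earlier results of these data known.

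Leaf starch is made inside the chloroplast in the light. Plastid phosphoglucomutase supplies glucose 1-phosphate, ADP-glucose pyrophosphorylase turns it into ADP-glucose, and starch synthases, branching enzymes and isoamylases build the granule from it. At night dikinases phosphorylate the granule surface, phosphatases remove the phosphate again, and beta-amylases release maltose, which leaves the plastid through MEX1. The triose phosphate translocator exports the products of carbon fixation by day, and glucose 6-phosphate translocators import hexose phosphate into plastids that do not make their own.

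The mutant melinoe carries a mutation induced with ethyl methanesulfonate in FMN/FHY (AT4G21470), the gene of a riboflavin kinase and FMN hydrolase. The 4 groups of leaves had 3 libraries each. Green, green-white and white rosette leaves came from melinoe, and wild-type rosette leaves came from Col-0. All plants were stratified for 48 h, raised for 2 weeks on medium with 1% sucrose and moved to soil, at 22 °C with 16 h of light at 75 µmol of photons per square metre and second and 8 h of darkness. The labels call the libraries biological replicates and do not say whether each came from 1 plant or from a pool, and the p-values speak only for the spread among the libraries sequenced. The sources used here give neither the age of the leaves nor the hour of harvest nor any backcross. Many starch genes of *Arabidopsis* follow the time of day, and the part of harvest time in the results was not tested.

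Each library held 25795702 to 26760055 estimated counts. Levels of a gene are given as CPM, counts relative to the library's TMM-scaled total, with the SD over 3 libraries. Log2 fold changes come from edgeR's quasi-likelihood test on all 12 libraries, with their standard errors after the ± sign. Calls rest on p-values adjusted by Benjamini-Hochberg over 19424 genes, with 0.05 as the threshold. The mutated gene FMN/FHY had log2 fold changes over wild type of −0.07 ± 0.05 (green), 0.02 ± 0.05 (green-white) and 0.07 ± 0.05 (white), and none of these passed the test, while it rose by 0.15 (adjusted p = 0.011) in white over green leaves. A point mutation need not alter the transcript, so these values do not check the labels. Green library A stood apart from green B and C. Its log2 ratio to their mean was lower for longer transcripts over 13488 genes (Pearson r = −0.54 with log2 length, a description across genes), and the 12 longest members, of at least 3000 bases, were at a median of −0.09 on the log2 scale in it. Results that change without this library are given with both values or with a range of values.

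Leaf markers matched the labelled tissue. All 6 mesophyll markers were detected, with a summed level of 36553 to 38907 CPM in green leaves, 19002 to 19599 CPM in green-white and 13602 to 13641 CPM in white leaves, against 36095 to 36819.5 CPM in wild type. All 6 were lower in both paler leaf classes than in wild type. The 6 guard cell markers summed to 78.2 to 79.5 CPM in green leaves, 50.7 to 51.9 CPM in green-white and 60.3 to 63.04 CPM in white leaves, against 76.3 to 76.98 CPM in wild type. Single guard cell markers went both ways. Over wild type, 3 were higher and 2 lower in green leaves, 0 and 4 in green-white, and 2 and 3 in white leaves. The 8 vascular markers summed to 759 to 782 CPM, 607 to 614 CPM and 354 to 366 CPM in these leaf classes, against 885 to 907 CPM in wild type, and all 8 were lower than wild type in green-white and in white leaves. In green leaves 6 were lower and 2 did not pass. White over green leaves, vascular markers went both ways, with 6 lower and 2 higher, XCP2 by 0.33 and CESA7 by 0.95 on the log2 scale. Epidermal markers, 4 genes, summed to 367 to 377 CPM, 504 to 506 CPM and 483 to 493 CPM, against 697 to 723 CPM. They too went both ways, with 1 higher and 3 lower than wild type in green leaves and 2 and 2 in each paler class. In white leaves PDF1 rose by 2.32 and CER1 by 0.53 on the log2 scale, while LTP1 fell by 1.24 and ATML1 by 0.75. The 3 floral markers were low but differed, at 5.60 to 5.96 CPM in white leaves against 1.81 to 2.15 CPM in wild type. In white leaves PI rose by 1.84 (adjusted p = 1.7e-12) and AP3 by 1.59 (adjusted p = 0.0032) on the log2 scale, and AG did not pass the test. The root hair marker EXPA7 was not listed and COBL9 did not pass 0.0819 CPM in any library. In whole leaves, fewer cells of a type and less RNA per cell cannot be told apart, and the part of cell composition in the results was not tested.

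Most genes of starch metabolism were lower in the paler leaf classes of melinoe, while the beta-amylase gene BAM1 and the glucose 6-phosphate translocator gene GPT2 were higher in all of them. GPT2 was 5.75-fold higher in green leaves, 8.49-fold in green-white and 6.70-fold in white leaves than in wild type, and BAM1 was 2.59-fold, 3.56-fold and 2.82-fold higher. The granule-bound starch synthase gene GBSS1 was 5.42-fold lower in white leaves and the beta-amylase gene BAM5 4.96-fold lower. The plot of log2 fold changes by role shows all 33 genes.

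**Figure D1:**
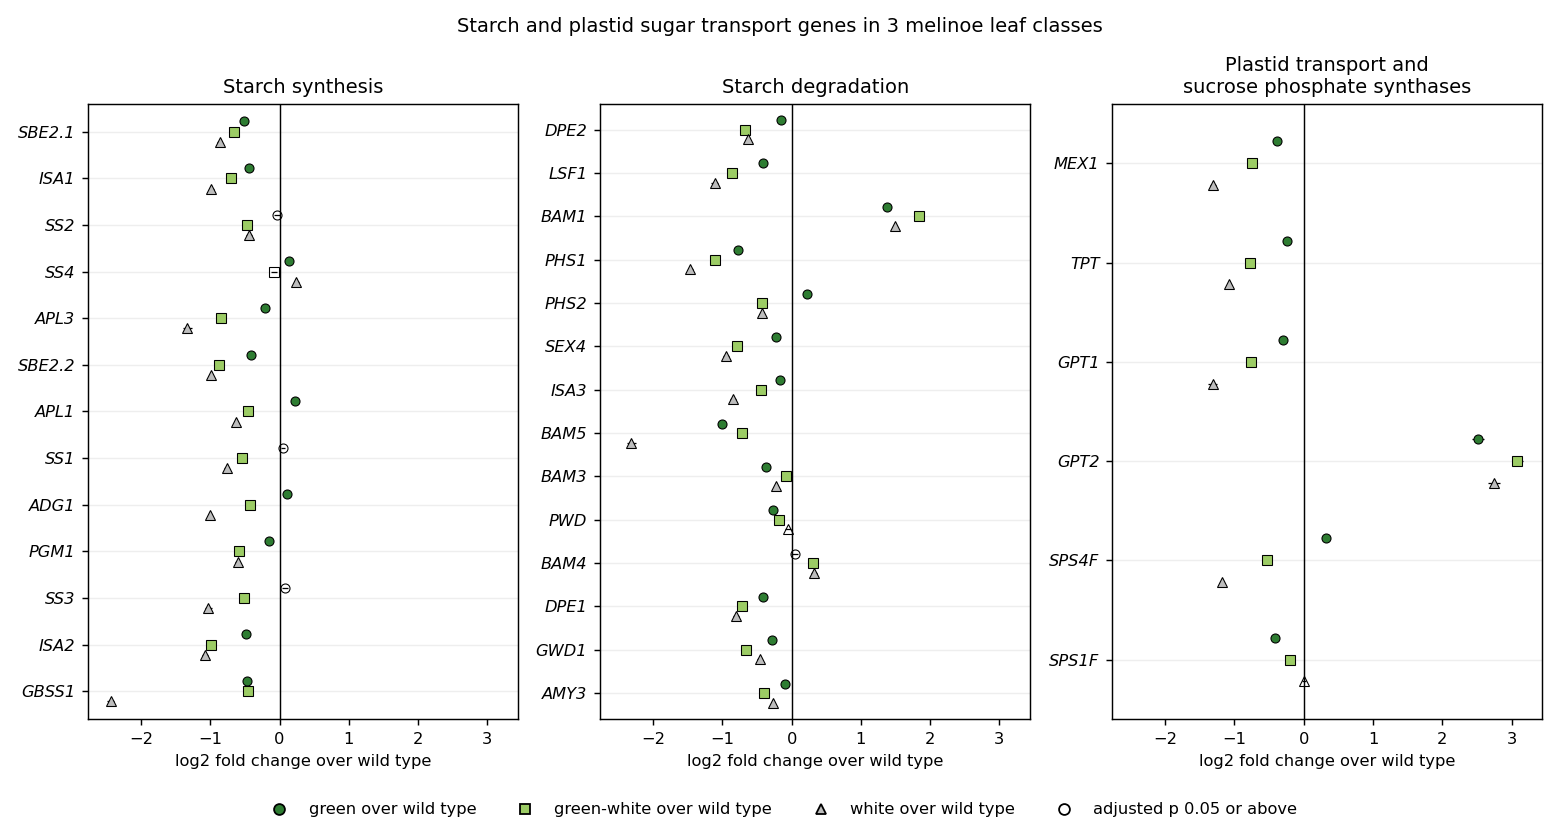
Log2 fold change over wild type (x axis) of each of the 33 genes (rows) in green (circles), green-white (squares) and white (triangles) leaves, with standard errors as bars; open symbols did not pass the test. GPT2, at 2.52, 3.08 and 2.74, and BAM1, at 1.37, 1.83 and 1.50, lie far to the right, and GBSS1 and BAM5 in white leaves lie at −2.44 and −2.31.

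In green leaves, 7 of the 33 genes were higher and 22 lower than in wild type, where 28.7% of all tested genes were higher and 29.6% lower. Green-white leaves had 3 higher and 29 lower, beside 34.1% and 38.8% of all genes. White leaves had 4 higher and 27 lower, beside 39.9% and 40%. The median log2 fold change of the 33 genes was −0.23 in green leaves, −0.55 in green-white leaves and −0.85 in white leaves, beside a median over all genes tested of −0.01, −0.04 and 0.00. At least 2-fold lower in white leaves were 12 of the 33, beside 14.6% of all genes, and at least 2-fold higher were 2, GPT2 and BAM1, beside 10.7%. These 3 comparisons share the wild-type libraries.

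Among the leaf classes of melinoe, green-white leaves had 7 of the 33 genes higher and 25 lower than green leaves, beside 29.6% and 29.9% of all genes. White leaves had 7 higher and 26 lower than green leaves, beside 36.3% and 36.3%, and 7 of those 26 were at least 2-fold lower, beside 8.92% of all genes. Against green-white leaves, white leaves had 5 higher and 21 lower, beside 33.5% and 30.8%. The median log2 fold changes of the 33 were −0.37, −0.60 and −0.21 in these comparisons, and those of all genes 0.00, −0.01 and 0.02. By their means, 22 of the 33 genes were lowest in white leaves and 22 highest in wild type, and 14 followed the order wild type, green, green-white, white from high to low. The orders of all other genes were not counted, so whether these counts are particular to the 33 was not tested.

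The scaling set the zero of these comparisons. TMM factors lay at 0.903 to 0.929 in green and wild-type libraries and at 1.076 to 1.12 in green-white and white libraries. With library totals alone the median of all genes moved by 0.25 in green-white and 0.29 in white leaves over wild type, and by 0.23 and 0.28 over green leaves. The genes then split into 5 higher and 26 lower in green-white and 7 higher and 25 lower in white leaves over wild type. Over green leaves they split into 9 higher and 20 lower in green-white leaves, beside 54.7% and 13.7%, and 9 higher and 24 lower in white leaves, beside 56.9% and 20.5%. Genes called lower that were then called higher were BAM3 in green-white and white leaves over wild type, SBE2.1 in green-white over green leaves, and GWD1 and AMY3 in white over green leaves. PWD and SPS1F in green-white and AMY3 in white leaves over wild type, and SS4 in green-white over green leaves, turned to a positive difference that did not pass. Differences below 0 that had not passed also turned, for SS4 in green-white and PWD in white leaves over wild type, which then passed, and for PGM1 and PHS2 in white over green-white leaves, which did not. Of all called genes, 69.9% and 68.4% were then higher over wild type and 80.02% and 73.5% over green, in place of 46.8%, 49.9%, 49.7% and 49.98%.

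Genes of starch synthesis were split in green leaves and nearly all lower in the paler ones. Of 13, green leaves had 3 higher and 7 lower than wild type, green-white leaves 0 higher and 12 lower, and white leaves 1 higher and 12 lower. Of all genes tested, 28.7% were higher and 29.6% lower in green leaves, 34.1% and 38.8% in green-white leaves, and 39.9% and 40% in white leaves. The synthesis genes had a median log2 fold change of −0.15, −0.55 and −0.98 in these leaf classes, beside −0.01, −0.04 and 0.00 over all genes. White leaves had 12 of the 13 lower than green leaves, with SS4 the exception.

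ADP-glucose pyrophosphorylase, the enzyme of the committed step, is made of a small subunit encoded by ADG1 (AT5G48300) and large subunits encoded by APL1 (AT5G19220), the main leaf form, and APL3 (AT4G39210). ADG1 had 369, 383 and 384 CPM in green leaves, 269.7, 259 and 258 CPM in green-white and 182, 172 and 172 CPM in white leaves, against 348, 353 and 354 CPM in wild type. Green libraries were all above wild type, and green-white and white libraries below it, with no overlap between any of the groups. ADG1 rose by 0.11 ± 0.03 (adjusted p = 0.0027) in green leaves, fell by 0.42 ± 0.03 (adjusted p = 5.3e-14) in green-white and fell by 1.00 ± 0.03 (adjusted p = 8.5e-24) in white leaves, on the log2 scale over wild type. The green call ended with upper-quartile scaling, at 0.06 (adjusted p = 0.078). APL1 had 268, 286 and 274 CPM in green leaves, 172, 173 and 174 CPM in green-white and 152, 159 and 151 CPM in white leaves, against 235, 239.6 and 236 CPM in wild type. Its groups fell in the same order with no overlap. APL1 rose by 0.22 ± 0.03 (adjusted p = 1.9e-07) in green leaves, fell by 0.45 ± 0.03 (adjusted p = 1.6e-14) in green-white and fell by 0.63 ± 0.03 (adjusted p = 3.2e-18) in white leaves. APL3 had 23.3, 22.1 and 22.2 CPM in green leaves, 15.2, 13.7 and 14.2 CPM in green-white and 10.2, 10.9 and 9.80 CPM in white leaves, against 25.9, 27.04 and 24.9 CPM in wild type. All 4 groups were apart, with wild type highest and white leaves lowest. APL3 fell by 0.21 ± 0.05 (adjusted p = 0.0015) in green leaves, fell by 0.85 ± 0.06 (adjusted p = 1.1e-14) in green-white and fell by 1.33 ± 0.06 (adjusted p = 3.3e-19) in white leaves.

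PGM1 (AT5G51820), the plastid phosphoglucomutase that feeds ADP-glucose synthesis, fell by 0.15 ± 0.04 (adjusted p = 4.3e-04) in green leaves, fell by 0.58 ± 0.04 (adjusted p = 2.2e-15) in green-white and fell by 0.60 ± 0.04 (adjusted p = 6.2e-16) in white leaves. Its levels were 107 ± 4.78 CPM in green-white and 105 ± 5.29 CPM in white leaves, which overlapped.

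The soluble starch synthases elongate the glucan chains, and SS4 is known for starting new granules. SS1 (AT5G24300) differed by 0.05 ± 0.03 (adjusted p = 0.15) in green leaves and fell by 0.55 ± 0.03 (adjusted p = 3.3e-16) in green-white and fell by 0.76 ± 0.03 (adjusted p = 4.3e-20) in white leaves. Without green library A its green difference was 0.10 (adjusted p = 0.0068), and without wild-type library A it was 0.11 (adjusted p = 0.0093). SS2 (AT3G01180) differed by −0.03 ± 0.04 (adjusted p = 0.52) in green leaves, fell by 0.47 ± 0.04 (adjusted p = 1.3e-11) in green-white and fell by 0.44 ± 0.04 (adjusted p = 3.6e-11) in white leaves. SS3 (AT1G11720), a synthase of long chains, had 74.6, 86.9 and 85.5 CPM in green leaves, 53.5, 54.1 and 56.6 CPM in green-white and 38.2, 39.1 and 37.7 CPM in white leaves, against 82.9, 74.6 and 76.7 CPM in wild type. Green and wild-type libraries overlapped, while the white libraries were all below the green-white ones, and these below wild type. SS3 differed by 0.08 ± 0.05 (adjusted p = 0.16) in green leaves, fell by 0.51 ± 0.05 (adjusted p = 2.9e-11) in green-white and fell by 1.03 ± 0.05 (adjusted p = 1.7e-18) in white leaves. Its green difference passed the test without green library A, at 0.17 (adjusted p = 3.1e-04), and without wild-type library A, at 0.15 (adjusted p = 0.011).

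SS4 (AT4G18240) was the only one of the 5 synthase genes that was higher in white leaves than in wild type. It had 145, 162 and 165 CPM in green leaves, 132, 135 and 138 CPM in green-white and 168, 169 and 169 CPM in white leaves, against 145, 139 and 143 CPM in wild type. White libraries were above all others, green-white libraries lowest, and green library A lay at the wild-type level below green B and C. SS4 rose by 0.14 ± 0.04 (adjusted p = 0.0016) in green leaves, differed by −0.08 ± 0.04 (adjusted p = 0.062) in green-white and rose by 0.24 ± 0.04 (adjusted p = 6.8e-07) in white leaves over wild type, and rose by 0.32 ± 0.04 (adjusted p = 5.8e-09) in white over green-white leaves. White over green leaves, it rose by 0.10 ± 0.04 (adjusted p = 0.017), and this call ended without green library A, at 0.03 (adjusted p = 0.48), without wild-type library C, at 0.08 (adjusted p = 0.052), and with upper-quartile scaling, at 0.06 (adjusted p = 0.11). The green-white difference passed without green-white library C, at −0.10 (adjusted p = 0.045). It also passed in opposite directions with other scalings, at −0.15 (adjusted p = 4.7e-04) with upper-quartile scaling and at 0.17 (adjusted p = 2.4e-04) with library totals alone.

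GBSS1 (AT1G32900), which makes amylose inside the granule, lies on chromosome 1, bases 11920390 to 11923866 on the minus strand, 13 exons in RefSeq TAIR10.1. It had 63.3, 67.8 and 67.2 CPM in green leaves, 66.5, 66.6 and 67.8 CPM in green-white and 17.1, 17.7 and 15.7 CPM in white leaves, against 93.3, 89.4 and 91.5 CPM in wild type. Green and green-white libraries overlapped below wild type, and the white libraries lay far below both. GBSS1 fell by 0.47 ± 0.04 (adjusted p = 3.1e-12) in green leaves, fell by 0.45 ± 0.04 (adjusted p = 2.9e-12) in green-white and fell by 2.44 ± 0.05 (adjusted p = 1.4e-29) in white leaves. Between white and green-white leaves it fell by 1.99 ± 0.05 (adjusted p = 2.8e-26), the largest difference of the 33 genes at that step, and between green-white and green leaves it differed by 0.02 ± 0.04 (adjusted p = 0.7), with an interval of −0.06 to 0.10. With library totals alone the green-white over green difference passed, at 0.25 (adjusted p = 1.8e-06).

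The promoters of the genes with the largest falls and rises in white leaves are shown, as the 300 bases before the annotated gene start, from RefSeq TAIR10.1, 5′ to 3′ along the gene. They were searched on both strands for 5 motifs, none of which contains another: the G-box CACGTG, the evening element AAAATATCT of genes expressed in the evening, TATCCA of sugar-regulated alpha-amylase genes of rice, the W-box TTGACC and the I-box GATAAG. Capitals mark a match, which is a match of letters and not a binding site. The window of GBSS1 is chr1:11923867-11924166 on the minus strand, and that of BAM5, a beta-amylase gene described further on, is chr4:8669527-8669826 on the minus strand. The GBSS1 window held none of the 5 motifs and BAM5 held a G-box whose first base is 253 bases before the start. Matches that run past the end of a window were not searched. The GBSS1 window ends with the letters aaaatatc, the evening element without its last letter.
GBSS1: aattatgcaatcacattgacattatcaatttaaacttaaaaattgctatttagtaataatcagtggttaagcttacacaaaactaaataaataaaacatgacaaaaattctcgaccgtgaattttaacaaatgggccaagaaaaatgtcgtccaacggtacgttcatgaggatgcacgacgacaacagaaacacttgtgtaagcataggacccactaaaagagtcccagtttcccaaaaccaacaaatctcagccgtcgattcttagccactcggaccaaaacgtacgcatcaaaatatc
BAM5: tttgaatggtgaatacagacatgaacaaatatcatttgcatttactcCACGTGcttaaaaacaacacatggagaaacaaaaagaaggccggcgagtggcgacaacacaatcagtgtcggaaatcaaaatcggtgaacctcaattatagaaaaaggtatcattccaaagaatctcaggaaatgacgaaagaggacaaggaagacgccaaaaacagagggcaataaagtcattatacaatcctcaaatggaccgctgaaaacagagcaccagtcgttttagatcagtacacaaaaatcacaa

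Among 27443 promoters of the same length the G-box stood in 7.1%, the evening element in 2.8%, TATCCA in 16.2%, the W-box in 14.0% and the I-box in 14.5%. Of the 33 genes, 9 (27.3%) held a G-box, namely SS1, SS3, SS4, SBE2.1, LSF1, BAM5, DPE1, PHS1 and PHS2. The evening element stood in 5 (15.2%), namely PGM1, ISA3, PWD, GPT2 and SPS1F. TATCCA stood in 4 (12.1%), the I-box in 4 (12.1%) and the W-box in 2 (6.1%). Of the genes with the evening element, GPT2 was higher than wild type in all leaf classes, and PGM1 and ISA3 were lower. PWD and SPS1F were lower in green and green-white leaves and did not pass the test in white leaves. Any link between motifs and changes was not tested.

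Branching enzymes and the isoamylases of synthesis shape amylopectin. The branching enzyme genes SBE2.1 (AT2G36390) and SBE2.2 (AT5G03650) were lower in every leaf class. SBE2.1 fell by 0.51 ± 0.03 (adjusted p = 1.9e-14) in green leaves, fell by 0.65 ± 0.03 (adjusted p = 1.4e-17) in green-white and fell by 0.86 ± 0.03 (adjusted p = 6.9e-21) in white leaves. SBE2.2 fell by 0.41 ± 0.03 (adjusted p = 2.1e-12) in green leaves, fell by 0.88 ± 0.03 (adjusted p = 3.7e-21) in green-white and fell by 0.99 ± 0.03 (adjusted p = 1.2e-22) in white leaves. ISA1 (AT2G39930), the catalytic debranching subunit, was at 65.7 ± 0.363 CPM in green leaves, 55.2 ± 1.14 CPM in green-white and 45.2 ± 1.47 CPM in white leaves, against 89.4 ± 1.21 CPM in wild type. ISA2 (AT1G03310), its non-catalytic partner, had 58.2, 55.5 and 61.2 CPM in green leaves, 40.1, 40.97 and 41.2 CPM in green-white and 39.9, 37.6 and 38.2 CPM in white leaves, against 82.7, 79.5 and 81.2 CPM in wild type. Wild type was highest and green leaves next for both subunits, and all libraries of a group were apart from those of the next. ISA1 fell by 0.44 ± 0.04 (adjusted p = 2.1e-12) in green leaves, fell by 0.70 ± 0.04 (adjusted p = 1.3e-17) in green-white and fell by 0.98 ± 0.04 (adjusted p = 1.6e-21) in white leaves. ISA2 fell by 0.48 ± 0.04 (adjusted p = 3.3e-12) in green leaves, fell by 0.99 ± 0.04 (adjusted p = 2.3e-20) in green-white and fell by 1.07 ± 0.04 (adjusted p = 2.1e-21) in white leaves.

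Genes of starch degradation were mostly lower as well, with the beta-amylase genes moving in both directions. Of 14, green leaves had 2 higher and 11 lower than wild type, green-white leaves 2 higher and 12 lower, and white leaves 2 higher and 11 lower. The shares of all genes were 28.7% higher and 29.6% lower, 34.1% and 38.8%, and 39.9% and 40% in these leaf classes. The median log2 fold change of the 14 was −0.25, −0.55 and −0.55, beside −0.01, −0.04 and 0.00 over all genes. Here the white median lay nearer to 0 than that of the synthesis genes, −0.98. The difference of the medians was not tested.

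Glucan water dikinase, encoded by GWD1 (AT1G10760), starts degradation by phosphorylating starch. GWD1 had 557, 636 and 625 CPM in green leaves, 459, 472 and 475 CPM in green-white and 537, 549.8 and 528 CPM in white leaves, against 751, 725 and 746 CPM in wild type. Every mutant library was below wild type, green library A was below green B and C, and white leaves lay above green-white leaves. GWD1 fell by 0.29 ± 0.03 (adjusted p = 1.2e-08) in green leaves, fell by 0.66 ± 0.03 (adjusted p = 2.2e-17) in green-white and fell by 0.46 ± 0.03 (adjusted p = 1.3e-13) in white leaves, and it rose by 0.20 ± 0.03 (adjusted p = 8.4e-06) in white over green-white leaves. PWD (AT5G26570), the phosphoglucan water dikinase that acts after it, fell by 0.27 ± 0.04 (adjusted p = 6.4e-07) in green and fell by 0.18 ± 0.04 (adjusted p = 1.6e-04) in green-white leaves and differed by −0.05 ± 0.04 (adjusted p = 0.2) in white leaves. The white difference passed with upper-quartile scaling, at −0.14 (adjusted p = 0.0017), and in the other direction with library totals alone, at 0.24 (adjusted p = 3.0e-06). In white over green leaves PWD rose by 0.22 ± 0.04 (adjusted p = 1.4e-05). Green-white over green, it rose by 0.09 ± 0.04 (adjusted p = 0.047), but without green library A the difference was 0.02 (adjusted p = 0.55); this call also ended without any of the green-white or white libraries, without wild-type A or C, and with upper-quartile scaling or only the 6 libraries compared, at differences of 0.06 to 0.10.

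The glucan phosphatase genes SEX4 (AT3G52180) and LSF1 (AT3G01510) were lower in each leaf class. SEX4 fell by 0.23 ± 0.04 (adjusted p = 2.4e-05) in green leaves, fell by 0.79 ± 0.04 (adjusted p = 6.6e-17) in green-white and fell by 0.95 ± 0.04 (adjusted p = 4.8e-19) in white leaves. LSF1, a phosphatase-like protein that binds beta-amylases, had 22.4, 21.7 and 21.9 CPM in green leaves, 15.5, 16.6 and 16.2 CPM in green-white and 13.7, 13.4 and 13.4 CPM in white leaves, against 29.01, 28.7 and 29.9 CPM in wild type. All 4 groups were apart, from wild type at the top to white leaves at the bottom. LSF1 fell by 0.41 ± 0.05 (adjusted p = 1.4e-08) in green leaves, fell by 0.86 ± 0.05 (adjusted p = 3.8e-16) in green-white and fell by 1.11 ± 0.05 (adjusted p = 6.3e-19) in white leaves. Its gene overlaps that of the carbonic anhydrase CA1 (AT3G01500) on the same strand, a mesophyll marker that fell by 3.46 on the log2 scale in white leaves, and 83.3% of its counts were whole numbers, so its values are uncertain.

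Beta-amylases cut maltose from glucan ends. BAM1 (AT3G23920), a redox-regulated plastid form, lies on chromosome 3, bases 8641181 to 8644449 on the plus strand, 4 exons. It had 406, 402 and 393 CPM in green leaves, 545, 559.98 and 547 CPM in green-white and 436, 435 and 438 CPM in white leaves, against 159, 151 and 153 CPM in wild type. Every mutant library was above every wild-type library, with green-white leaves highest and green leaves lowest among the leaf classes. BAM1 rose by 1.37 ± 0.03 (adjusted p = 3.0e-27) in green leaves, rose by 1.83 ± 0.03 (adjusted p = 8.8e-31) in green-white and rose by 1.50 ± 0.03 (adjusted p = 3.9e-29) in white leaves. It was higher in green-white than in green leaves by 0.46 ± 0.03 (adjusted p = 1.6e-15), and lower in white than in green-white leaves, where it fell by 0.33 ± 0.03 (adjusted p = 2.4e-12). No library left out and no other setting ended these calls. Its promoter window, chr3:8640881-8641180 on the plus strand, held none of the 5 motifs.
BAM1: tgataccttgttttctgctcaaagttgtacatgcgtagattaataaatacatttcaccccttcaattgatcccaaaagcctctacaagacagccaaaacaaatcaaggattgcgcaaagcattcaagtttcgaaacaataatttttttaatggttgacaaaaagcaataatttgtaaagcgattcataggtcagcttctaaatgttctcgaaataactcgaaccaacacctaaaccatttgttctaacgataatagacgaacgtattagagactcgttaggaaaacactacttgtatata

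BAM3 (AT4G17090), the main beta-amylase of leaf starch breakdown at night, had 373, 392 and 371 CPM in green leaves, 457, 465 and 462 CPM in green-white and 421, 414 and 414 CPM in white leaves, against 492, 490.2 and 480.3 CPM in wild type. All mutant libraries were below wild type and green leaves were lowest, but the differences were small beside those of BAM1. BAM3 fell by 0.36 ± 0.03 (adjusted p = 6.5e-13) in green leaves, fell by 0.08 ± 0.03 (adjusted p = 0.012) in green-white and fell by 0.23 ± 0.03 (adjusted p = 7.8e-09) in white leaves. The green-white call ended with RLE scaling, with DESeq2, with only the 6 libraries compared, and without any 1 of the green or wild-type libraries, at differences of −0.06 to −0.04. With library totals alone BAM3 was higher than wild type in green-white (0.17) and white leaves (0.07). BAM4 (AT5G55700), a plastid beta-amylase-like protein without activity that is needed for starch breakdown, was at 29.7 ± 1.40 CPM in green leaves, 35.5 ± 0.945 CPM in green-white and 35.96 ± 0.412 CPM in white leaves, against 28.8 ± 1.48 CPM in wild type. BAM4 differed by 0.04 ± 0.05 (adjusted p = 0.46) in green leaves, rose by 0.30 ± 0.05 (adjusted p = 1.3e-06) in green-white and rose by 0.32 ± 0.05 (adjusted p = 3.5e-07) in white leaves.

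BAM5 (AT4G15210), a beta-amylase outside the plastid that is known from phloem, lies on chromosome 4, bases 8666334 to 8669526 on the minus strand, 7 exons. It had 17.1, 19.7 and 18.4 CPM in green leaves, 22.4, 22.3 and 22.7 CPM in green-white and 7.11, 8.25 and 6.95 CPM in white leaves, against 36.8, 36.3 and 37.6 CPM in wild type. Wild type was highest, green-white leaves lay above green leaves, and the white libraries were apart from all others at the bottom. BAM5 fell by 1.00 ± 0.05 (adjusted p = 1.2e-16) in green leaves, fell by 0.72 ± 0.05 (adjusted p = 5.7e-14) in green-white and fell by 2.31 ± 0.06 (adjusted p = 2.8e-25) in white leaves. Green-white over green leaves it rose by 0.29 ± 0.06 (adjusted p = 7.4e-05), and white over green-white leaves it fell by 1.60 ± 0.07 (adjusted p = 1.4e-19). The summed vascular markers were lowest in white leaves too, although 2 of the 8 were higher in white than in green leaves. Their part in this result was not tested.

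**Figure D2:**
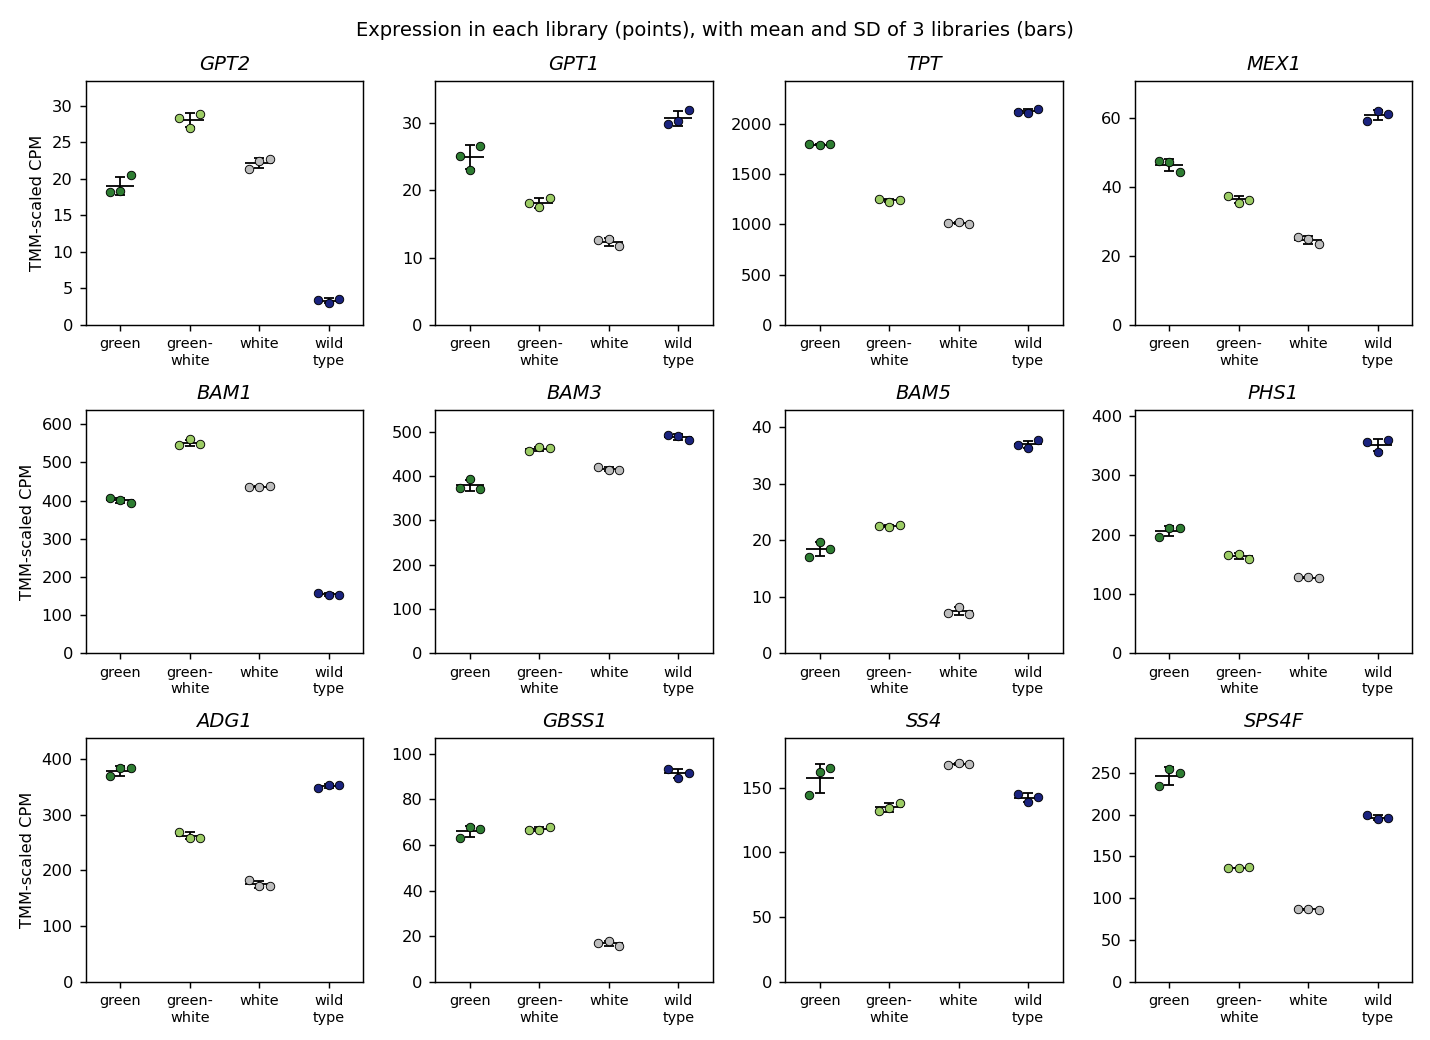
TMM-scaled CPM (y axis, from 0) of 12 genes in each library (points) of green, green-white and white melinoe leaves and of wild type, with the mean and SD of 3 libraries as bars. BAM1 and GPT2 are highest in green-white leaves, SS4 is highest in white leaves, and GBSS1 and BAM5 are far lower in white leaves than in any other group.

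The remaining degradation genes were mostly lower. ISA3 (AT4G09020), the debranching enzyme of degradation, fell by 0.16 ± 0.04 (adjusted p = 4.6e-04) in green leaves, fell by 0.44 ± 0.04 (adjusted p = 5.9e-12) in green-white and fell by 0.85 ± 0.04 (adjusted p = 6.2e-19) in white leaves. AMY3 (AT1G69830), a plastid alpha-amylase, fell by 0.41 ± 0.03 (adjusted p = 3.2e-13) in green-white and fell by 0.27 ± 0.03 (adjusted p = 2.2e-09) in white leaves. In green leaves it fell by 0.09 ± 0.03 (adjusted p = 0.013), a call that ended with only the 6 libraries compared and without green A, green B or any 1 of the wild-type libraries, at differences of −0.08 to −0.03. White leaves were above green-white leaves for AMY3, by 0.14 ± 0.03 (adjusted p = 3.0e-04). DPE1 (AT5G64860), the plastid disproportionating enzyme that recycles maltotriose, fell by 0.41 ± 0.04 (adjusted p = 1.5e-10) in green leaves, fell by 0.71 ± 0.04 (adjusted p = 1.4e-16) in green-white and fell by 0.80 ± 0.04 (adjusted p = 4.9e-18) in white leaves. DPE2 (AT2G40840), the cytosolic transglucosidase that takes up maltose, fell by 0.15 ± 0.03 (adjusted p = 4.0e-05) in green leaves, fell by 0.67 ± 0.03 (adjusted p = 2.3e-19) in green-white and fell by 0.63 ± 0.03 (adjusted p = 6.3e-19) in white leaves.

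Glucan phosphorylases occur in the plastid, as PHS1 (AT3G29320), and in the cytosol, as PHS2 (AT3G46970). PHS1 had 197, 211 and 210.2 CPM in green leaves, 165, 167 and 158 CPM in green-white and 128, 128 and 126 CPM in white leaves, against 356, 339 and 358 CPM in wild type. Green, green-white and white leaves followed each other downward, all below wild type and with no overlap. PHS1 fell by 0.77 ± 0.03 (adjusted p = 1.6e-19) in green leaves, fell by 1.10 ± 0.03 (adjusted p = 6.1e-24) in green-white and fell by 1.46 ± 0.03 (adjusted p = 2.6e-27) in white leaves. Its gene overlaps AT3G29330 on the other strand and 83.3% of its counts were whole numbers. PHS2 had 529.5 ± 21.2 CPM in green leaves, 341 ± 12.1 CPM in green-white and 339 ± 4.796 CPM in white leaves, against 456 ± 13.6 CPM in wild type. Green libraries were above wild type and the other leaf classes below it, with green-white and white libraries overlapping. PHS2 rose by 0.22 ± 0.03 (adjusted p = 6.5e-07) in green leaves, fell by 0.42 ± 0.03 (adjusted p = 2.9e-13) in green-white and fell by 0.43 ± 0.03 (adjusted p = 1.4e-13) in white leaves.

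Of the 4 transporter genes, 3 were lower and GPT2 was higher in every leaf class. TPT (AT5G46110), the triose phosphate translocator, was the most abundant of the 33 genes in each group by CPM per kilobase of the longest reference transcript, the scale used here to compare genes, at 783 ± 3.20 CPM per kilobase in green leaves, 541 ± 5.86 CPM per kilobase in green-white and 442 ± 4.86 CPM per kilobase in white leaves and 928 ± 8.34 CPM per kilobase in wild type. On the CPM scale, TPT had 1801, 1787 and 1799 CPM in green leaves, 1249, 1224 and 1244 CPM in green-white and 1018, 1020.2 and 999.7 CPM in white leaves, against 2119, 2114 and 2149.5 CPM in wild type. The groups were apart and followed the order wild type, green, green-white, white. TPT fell by 0.24 ± 0.02 (adjusted p = 1.9e-10) in green leaves, fell by 0.78 ± 0.02 (adjusted p = 2.0e-23) in green-white and fell by 1.07 ± 0.02 (adjusted p = 2.5e-27) in white leaves. MEX1 (AT5G17520), the maltose exporter, had 47.5, 47.1 and 44.2 CPM in green leaves, 37.3, 35.3 and 36.3 CPM in green-white and 25.4, 24.9 and 23.3 CPM in white leaves, against 59.05, 61.99 and 61.1 CPM in wild type. It followed the same order with no overlap. MEX1 fell by 0.39 ± 0.04 (adjusted p = 1.4e-09) in green leaves, fell by 0.74 ± 0.04 (adjusted p = 2.2e-16) in green-white and fell by 1.31 ± 0.04 (adjusted p = 1.8e-22) in white leaves.

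GPT1 (AT5G54800) and GPT2 (AT1G61800) encode glucose 6-phosphate translocators. GPT1 serves pollen and embryo plastids, and GPT2 is known to be induced by sugar and by high light. GPT1 had 25.1, 23.1 and 26.6 CPM in green leaves, 18.1, 17.5 and 18.9 CPM in green-white and 12.6, 12.8 and 11.7 CPM in white leaves, against 29.9, 30.4 and 31.97 CPM in wild type. It was highest in wild type and lowest in white leaves, and all groups were apart. GPT1 fell by 0.30 ± 0.05 (adjusted p = 1.4e-05) in green leaves, fell by 0.76 ± 0.06 (adjusted p = 9.5e-14) in green-white and fell by 1.32 ± 0.06 (adjusted p = 2.6e-19) in white leaves. GPT2 had 18.2, 18.3 and 20.5 CPM in green leaves, 28.3, 26.99 and 28.9 CPM in green-white and 21.4, 22.4 and 22.7 CPM in white leaves, against 3.37, 2.94 and 3.59 CPM in wild type. The mutant libraries all lay far above wild type, highest in green-white leaves, and the leaf classes did not overlap. GPT2 rose by 2.52 ± 0.09 (adjusted p = 9.2e-22) in green leaves, rose by 3.08 ± 0.08 (adjusted p = 1.3e-25) in green-white and rose by 2.74 ± 0.08 (adjusted p = 5.2e-24) in white leaves. Green-white over green leaves it rose by 0.56 ± 0.05 (adjusted p = 1.8e-10), white over green leaves it rose by 0.22 ± 0.06 (adjusted p = 8.5e-04), and white over green-white leaves it fell by 0.34 ± 0.05 (adjusted p = 9.5e-07). In the authors' deposited table the log2 fold changes of GPT2 over wild type are 2.45, 3.08 and 2.74.

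GPT2 lies on chromosome 1, bases 22824414 to 22826902 on the plus strand, 4 exons. Its promoter window, chr1:22824114-22824413 on the plus strand, held an evening element, in capitals, whose first base is 82 bases before the start, and none of the other motifs.
GPT2: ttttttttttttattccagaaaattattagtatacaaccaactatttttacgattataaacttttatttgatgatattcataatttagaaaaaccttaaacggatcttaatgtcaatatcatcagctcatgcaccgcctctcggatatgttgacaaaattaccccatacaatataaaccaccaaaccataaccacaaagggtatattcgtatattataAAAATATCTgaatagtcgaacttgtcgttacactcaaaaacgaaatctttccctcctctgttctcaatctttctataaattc

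Within a library, the ratio of GPT2 to GPT1 CPM per kilobase was 0.803 ± 0.0382 in green leaves, 1.63 ± 0.0180 in green-white and 1.89 ± 0.136 in white leaves, against 0.113 ± 0.00962 in wild type (SD, n = 3 each). The order of these translocator genes differed between the groups. GPT1 was the more abundant in green leaves and wild type, and GPT2 in green-white and white leaves. GPT2 was the least abundant of the 33 genes in wild type, at 1.92 ± 0.193 CPM per kilobase. This ratio and those that follow were chosen after the values were seen and carry no test.

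Sucrose phosphate synthase makes sucrose in the cytosol from exported carbon, and its genes SPS1F (AT5G20280) and SPS4F (AT4G10120) changed in opposite directions across the leaf classes. SPS1F had 163, 167 and 168 CPM in green leaves, 190.4, 196 and 189.8 CPM in green-white and 220.5, 219.7 and 224 CPM in white leaves, against 225, 213 and 224 CPM in wild type. Green libraries were lowest and white libraries highest among the leaf classes, and white and wild-type libraries overlapped. SPS1F fell by 0.41 ± 0.03 (adjusted p = 3.4e-13) in green leaves, fell by 0.20 ± 0.03 (adjusted p = 5.6e-07) in green-white and differed by 0.00 ± 0.03 (adjusted p = 0.89) in white leaves; the interval of the white difference was −0.06 to 0.07. The white difference passed with other scalings in opposite directions, at −0.08 (adjusted p = 0.021) with upper-quartile scaling and at 0.30 (adjusted p = 2.5e-10) with library totals alone. White over green leaves, SPS1F rose by 0.42 ± 0.03 (adjusted p = 1.2e-13). SPS4F had 234, 255 and 249.7 CPM in green leaves, 136, 136 and 137 CPM in green-white and 87.1, 87.7 and 86.2 CPM in white leaves, against 199.6, 195 and 196 CPM in wild type. Green libraries were above wild type, green-white libraries below it and white libraries lowest, without overlap. SPS4F rose by 0.32 ± 0.03 (adjusted p = 1.3e-10) in green leaves, fell by 0.53 ± 0.03 (adjusted p = 9.4e-16) in green-white and fell by 1.18 ± 0.03 (adjusted p = 8.8e-25) in white leaves. White over green leaves, SPS4F fell by 1.50 ± 0.03 (adjusted p = 1.5e-27). The ratio of CPM per kilobase of SPS1F to SPS4F was 0.845 ± 0.0260 in green leaves, 1.77 ± 0.0341 in green-white and 3.19 ± 0.0631 in white leaves, against 1.41 ± 0.0350 in wild type.

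Across the leaf classes of melinoe, 16 of the 33 genes were called lower at both steps, green to green-white and green-white to white. Of all genes tested, 29.9% were lower at the first step and 30.8% at the second. The share of all genes lower at both steps was not counted, so the 16 have no such share beside them. For 9 of these 16 the first step was the larger and for 7 the second. The count of 16 depended on the setting. SEX4 did not pass at the second step without green-white library C, at −0.11 (adjusted p = 0.052). With library totals alone SBE2.1 was higher at the first step, at 0.09 (adjusted p = 0.018). In that setting ISA1, at −0.02, and ISA3, at −0.05, did not pass at the first step, nor SBE2.2, at −0.065, at the second. Beside the 16, a further 4 had a lower mean at both steps without passing at the second, where DPE1 was at −0.09 ± 0.04, ISA2 at −0.08 ± 0.04, PGM1 at −0.02 ± 0.04 and PHS2 at −0.01 ± 0.03. Without green library A, DPE1 passed there at −0.11 (adjusted p = 0.022) and ISA2 at −0.10 (adjusted p = 0.044). Each also passed without green B or C and with only the 6 libraries compared. DPE1 passed as well with RLE or upper-quartile scaling, without the filter, and without white B or any wild-type library. GBSS1 and BAM5 had the lowest values of the 33 at the second step, −1.99 and −1.60 on the log2 scale, while their first steps were 0.02 and 0.29. SPS1F, PWD and BAM4 had a higher mean at both steps, although the second step of BAM4, 0.02 ± 0.04, did not pass the test (adjusted p = 0.73). BAM1, BAM3 and GPT2 were higher in green-white than in green leaves and lower in white than in green-white leaves. SS4, GWD1 and AMY3 were lower at the first step and higher at the second. SS2 and DPE2 were lower at the first step, and their second steps, 0.03 ± 0.04 and 0.04 ± 0.03, did not pass.

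**Figure D3:**
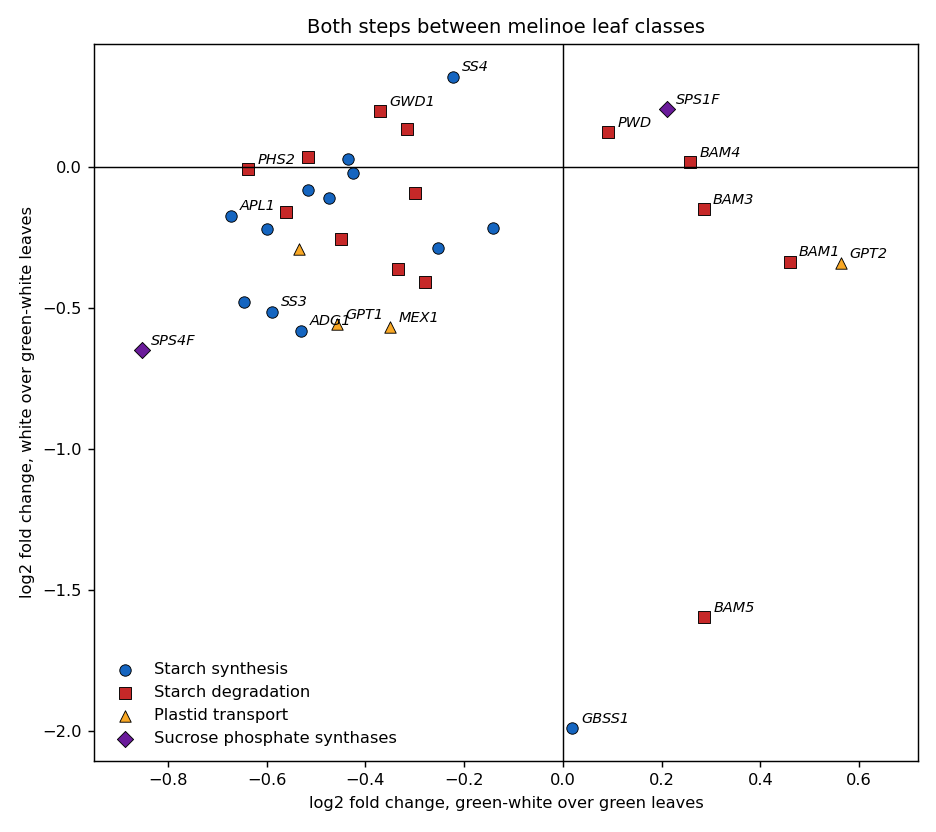
Log2 fold change of each of the 33 genes from green to green-white leaves (x axis) and from green-white to white leaves (y axis), coloured by role. The lower left holds the 20 genes with negative values at both steps, of which 16 passed the test at both, GBSS1 and BAM5 lie alone at the bottom, and GPT2 and BAM1 lie to the right below 0.

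The makeup of families differed between the groups. Of the summed CPM per kilobase of the 4 beta-amylase genes, BAM1 took 43.98 ± 0.687% in green leaves, 47.00 ± 0.190% in green-white and 44.2 ± 0.260% in white leaves, against 19.02 ± 0.379% in wild type (SD, n = 3 each). The share of BAM3 was 49.8 ± 0.789%, 47.2 ± 0.223% and 50.5 ± 0.247% in these leaf classes, against 71.9 ± 0.400% in wild type. By its mean BAM3 was the most abundant beta-amylase of the 4 in every group. The ratio of BAM1 to BAM3 was 0.883 ± 0.0275, 0.996 ± 0.00872 and 0.875 ± 0.00930 in these leaf classes, against 0.265 ± 0.00619 in wild type. In green-white library B it was 1.005. Among the 5 starch synthase genes, SS4 took 25.5 ± 0.780% in green leaves, 28.2 ± 0.299% in green-white and 41.7 ± 0.444% in white leaves, against 22.6 ± 0.189% in wild type. GBSS1 took 15.9 ± 0.124%, 20.7 ± 0.192% and 6.18 ± 0.336%, against 21.5 ± 0.163%. SS1 was the leading synthase in the other groups, and SS4 in white leaves.

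**Figure D4:**
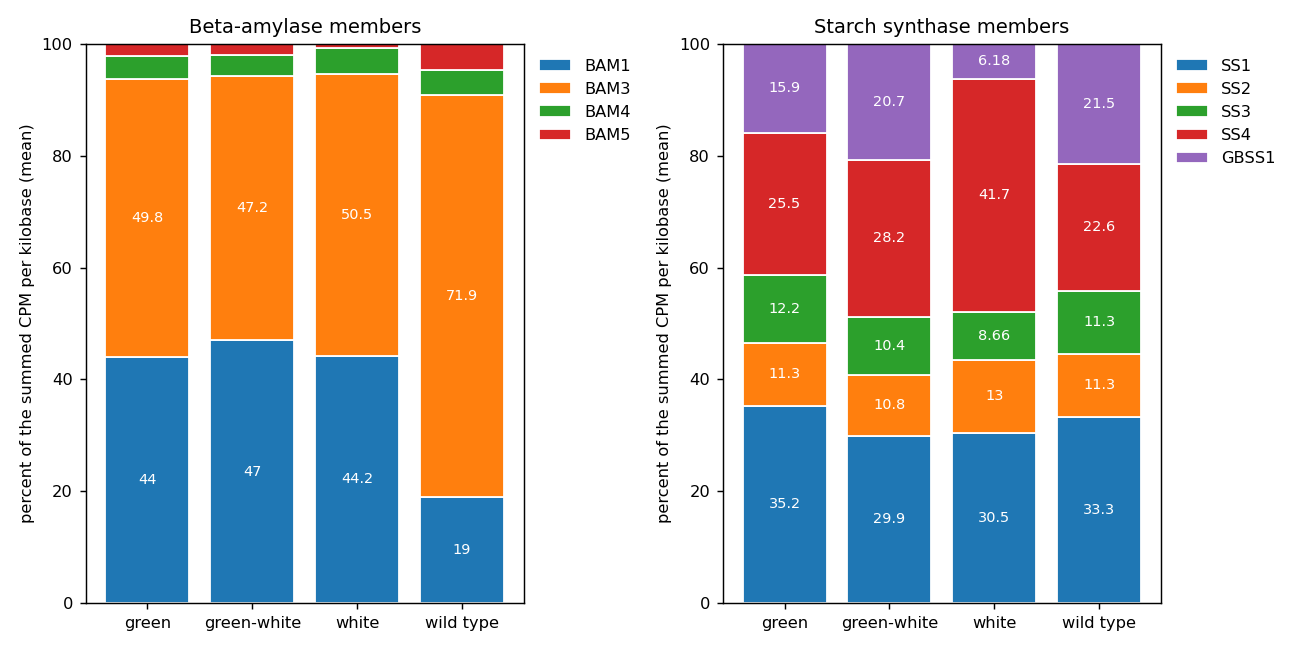
Share of the summed CPM per kilobase (y axis, percent, mean of 3 libraries) taken by each of 4 beta-amylase genes (left) and 5 starch synthase genes (right) in green leaves, green-white and white melinoe leaves and in wild type. BAM1 takes 44.0% in green leaves and 19.0% in wild type, and SS4 takes 41.7% in white leaves.

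The summed CPM per kilobase of the degradation genes was 1026 ± 27.1 in green leaves, 969 ± 12.3 in green-white and 900.2 ± 5.53 in white leaves, against 1082 ± 14.8 in wild type, and so was lower in each leaf class by its mean. That of the synthesis genes was 728 ± 17.5, 524 ± 2.82 and 431 ± 8.25 in these leaf classes, against 747 ± 3.10, and that of the transporters 835 ± 4.02, 588 ± 7.16 and 475 ± 5.55, against 982 ± 9.18. As shares, degradation genes held 38.2 ± 0.390% of the summed CPM per kilobase of the 33 genes in green leaves, 44.8 ± 0.435% in green-white and 47.7 ± 0.300% in white leaves, against 37.1 ± 0.309% in wild type. These sums and shares include BAM1, at 159, 219 and 173 CPM per kilobase in these leaf classes, against 61.3 in wild type. Shares without BAM1 were not computed. Transporters held 31.1 ± 0.637%, 27.2 ± 0.352% and 25.2 ± 0.0885%, against 33.7 ± 0.324%, mostly through TPT. Synthesis genes held 27.1 ± 0.206%, 24.2 ± 0.109% and 22.9 ± 0.298%, against 25.6 ± 0.0891%.

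A further 40 genes of starch and sucrose metabolism were examined beside the 33, and 39 passed the low-count filter. Green leaves had 12 of them higher and 14 lower than wild type, green-white leaves 5 higher and 22 lower, and white leaves 11 higher and 25 lower. As shares of the 39 these were 30.8% and 35.9% in green leaves, 12.8% and 56.4% in green-white and 28.2% and 64.1% in white leaves. Of all genes tested 28.7% and 29.6%, 34.1% and 38.8%, and 39.9% and 40% were higher and lower, so the green shares lay near those of all genes. With library totals alone the split was 17 higher and 15 lower in green-white leaves, beside 53.1% and 22.8% of all genes, and 17 higher and 15 lower in white leaves, beside 57.01% and 26.4%. Over green leaves, green-white leaves had 7 higher and 22 lower, beside 29.6% and 29.9% of all genes, and white leaves had 9 higher and 23 lower, beside 36.3% and 36.3%. These became 17 higher and 10 lower with library totals alone, beside 54.7% and 13.7%, and 16 higher and 16 lower, beside 56.9% and 20.5%. The median log2 fold changes of the 39 over wild type were −0.06, −0.25 and −0.32, beside −0.01, −0.04 and 0.00 over all genes.

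The largest changes among them were those of BE1 (AT3G20440), a branching-enzyme-like gene needed for embryo development. BE1 had 15.2, 16.6 and 16.5 CPM in green leaves, 44.4, 47.2 and 45.1 CPM in green-white and 97.1, 96.98 and 99.98 CPM in white leaves, against 6.62, 7.08 and 5.29 CPM in wild type. Green libraries were above wild type, green-white libraries above green ones and white libraries highest, without overlap. BE1 rose by 1.34 ± 0.08 (adjusted p = 1.8e-15) in green leaves, rose by 2.85 ± 0.07 (adjusted p = 1.1e-26) in green-white and rose by 3.95 ± 0.06 (adjusted p = 6.3e-32) in white leaves. SUS1 (AT5G20830), a sucrose synthase that cleaves sucrose in the cytosol, had 30.2, 30.3 and 31.4 CPM in green leaves, 69.6, 69.6 and 72.6 CPM in green-white and 118, 115 and 116 CPM in white leaves, against 24.03, 25.4 and 24.1 CPM in wild type. It followed the same order. SUS1 rose by 0.32 ± 0.05 (adjusted p = 7.8e-07) in green leaves, rose by 1.53 ± 0.04 (adjusted p = 8.5e-25) in green-white and rose by 2.25 ± 0.04 (adjusted p = 4.1e-30) in white leaves. AMY1 (AT4G25000), an alpha-amylase outside the plastid, had 15.5, 14.3 and 13.8 CPM in green leaves, 17.5, 16.4 and 18.5 CPM in green-white and 14.1, 15.5 and 14.7 CPM in white leaves, against 6.91, 7.41 and 6.36 CPM in wild type. All mutant libraries were above wild type, and green and white libraries overlapped. AMY1 rose by 1.08 ± 0.08 (adjusted p = 4.0e-13) in green leaves, rose by 1.34 ± 0.08 (adjusted p = 1.7e-16) in green-white and rose by 1.10 ± 0.08 (adjusted p = 3.9e-14) in white leaves.

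BAM9 (AT5G18670), a beta-amylase-like protein without activity, had 20.5, 21.5 and 20.2 CPM in green leaves, 38.3, 37.5 and 37.5 CPM in green-white and 20.2, 19.3 and 19.6 CPM in white leaves, against 47.4, 47.7 and 49.6 CPM in wild type. Green and white libraries overlapped at the bottom, with green-white libraries above them and wild type highest. BAM9 fell by 1.22 ± 0.05 (adjusted p = 9.3e-21) in green leaves, fell by 0.35 ± 0.04 (adjusted p = 3.8e-09) in green-white and fell by 1.29 ± 0.04 (adjusted p = 2.6e-22) in white leaves. BAM6 (AT2G32290), a further beta-amylase gene, had 23.7, 24.6 and 24.6 CPM in green leaves, 11.7, 12.1 and 12.4 CPM in green-white and 4.56, 4.65 and 4.66 CPM in white leaves, against 30.7, 26.5 and 26.5 CPM in wild type. White libraries were lowest and green-white libraries next. BAM6 fell by 0.20 ± 0.05 (adjusted p = 0.002) in green leaves, fell by 1.21 ± 0.06 (adjusted p = 6.2e-18) in green-white and fell by 2.59 ± 0.07 (adjusted p = 8.8e-25) in white leaves. Only 41.7% of its counts were whole numbers, so reads may be shared with a similar or an overlapping gene and its values are uncertain. The green call of BAM6 ended without wild-type library A, at −0.10 (adjusted p = 0.13).

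**Figure D5:**
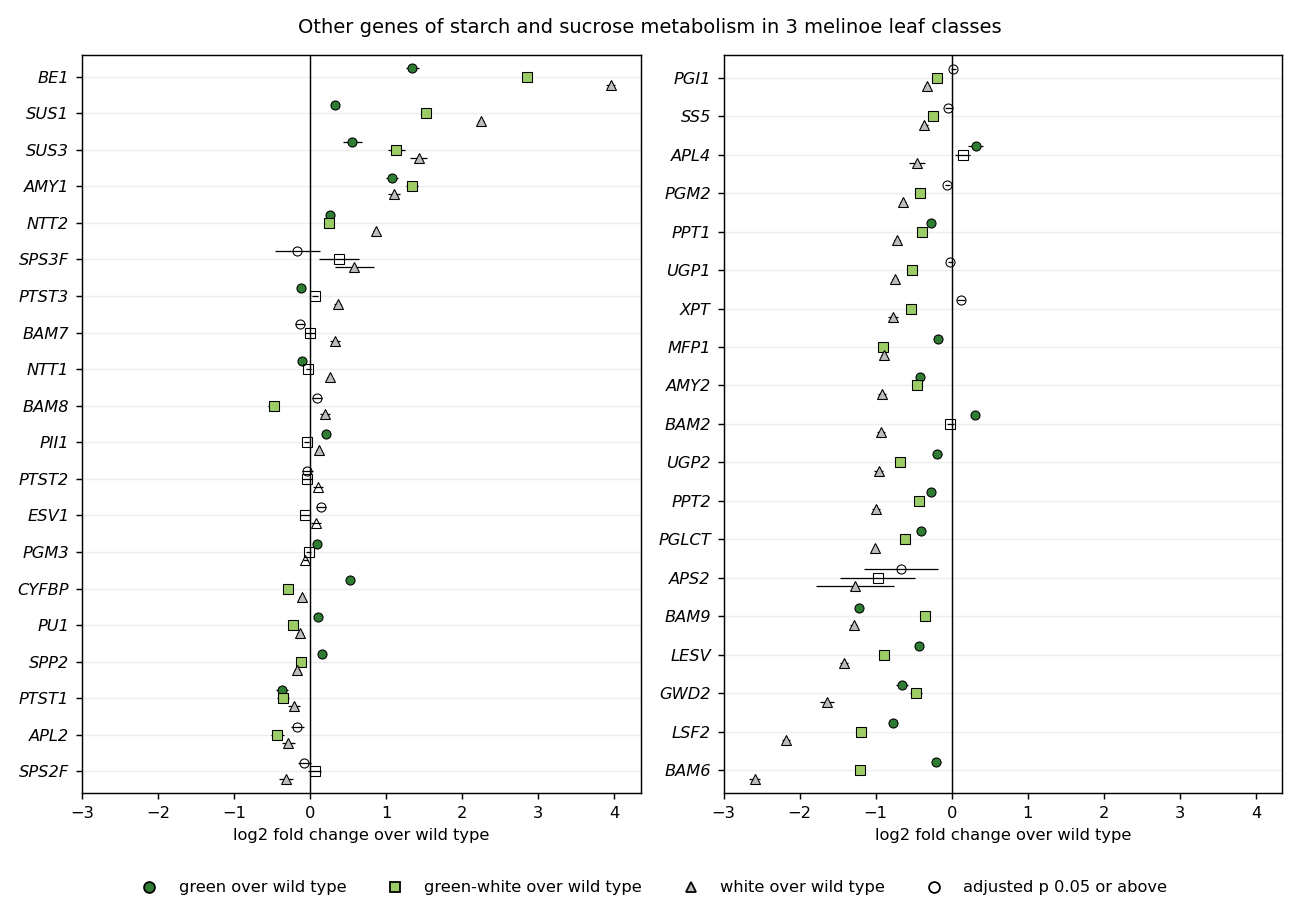
Log2 fold change over wild type (x axis) of the 39 other genes of starch and sucrose metabolism that passed the filter (rows, ordered by the white value) in green (circles), green-white (squares) and white (triangles) leaves, with standard errors as bars; open symbols did not pass the test. BE1 reaches 3.95 and SUS1 2.25 in white leaves, and BAM6 lies at −2.59.

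In the authors' deposited table, 28 of the 33 genes have a q-value below 0.05 in the green comparison and 31 in each of the others. The quasi-likelihood test called 29, 32 and 31 of them. No fold change of a gene called by both differed in sign.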

How the data were processed

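RNA of rosette leaves was read on a BGI platform after stranded poly(A) library preparation, per the labels' protocols. The design text names SOAPnuke 1.5.2 for filtering, HISAT2 2.0.4 and the build TAIR10, and the submitters' processing notes name Bowtie2, RSEM and DESeq2 with no version or role. Annotation and strand setting of the counting are unknown here, so genes that overlap others are uncertain: besides LSF1 and PHS1, these are APL1, SS2, SS3, SBE2.1, ISA1, BAM3, BAM4, PHS2, TPT and SPS4F.

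Per the file headers, the authors deposited 3 tables, each of a melinoe leaf class and wild type, with estimated counts per gene and library beside the authors' log2 fold change and q-value. Of the deposited estimated counts 92.2% are whole numbers. The tables were joined by gene ID (25169 genes, all matched to RefSeq TAIR10.1, 23214 of them in all 3 tables), and 9750 values of unlisted genes were set to 0. Columns were matched to groups by name. Deposited values per length were not used, because the columns cannot be tied to single samples and 1 measure was kept.

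Rounded estimated counts went into edgeR 4.0.16 (R 4.3.3) with TMM scaling, its low-count filter (19424 genes kept) and a quasi-likelihood test over 12 libraries with a mean per group, checked on simulated data. The common biological coefficient of variation was 0.0272, so small differences pass the test. Libraries of 1 group differed by more than sampling noise (chi-square 1.57 to 3.86 per gene). Alternatives were RLE and upper-quartile factors, library totals alone, no filter, DESeq2 1.42.0, only the libraries compared, and each library left out. Levels of different genes are compared as CPM per kilobase of the longest RefSeq transcript.

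The members and all lists were chosen with earlier results of these data known. Values of every library are given for genes with a called log2 fold change of at least 1 in size in any comparison and for the 2 most abundant of each role; SS4 and GWD1 were added after their values were seen. Of the other pathway genes, the 3 called genes of largest change in each comparison with wild type are named. Promoters are those of the 2 genes highest and the 2 lowest in white over wild type. Figures were drawn with matplotlib 3.10.9 (Python 3.11.15, pandas 2.3.3).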

Additional observations from a re-analysis of the deposited data

Results flagged for a closer look

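ADG1, APL1, PHS2 and SPS4F are listed because they were called higher than wild type in green leaves and lower than wild type in both paler leaf classes. Their differences between the leaf classes also passed edgeR's quasi-likelihood test. Wild type cancels out of these differences, which are those of the paler class over green leaves. The choice of the genes fixed their direction and made them large, so their p-values add no support. In green-white leaves the log2 fold change over wild type minus that in green leaves was −0.53 (adjusted p = 4.3e-16) for ADG1, the small subunit of ADP-glucose pyrophosphorylase, and −0.67 (adjusted p = 1.5e-18) for APL1, its leaf large subunit. It was −0.64 (adjusted p = 2.0e-17) for PHS2, the cytosolic glucan phosphorylase, and −0.85 (adjusted p = 9.0e-21) for SPS4F, a sucrose phosphate synthase. In white leaves it was −1.11 (adjusted p = 9.2e-25) for ADG1, −0.84 (adjusted p = 1.5e-21) for APL1, −0.64 (adjusted p = 6.3e-18) for PHS2 and −1.50 (adjusted p = 1.5e-27) for SPS4F. All 3 libraries of each paler class were below all 3 green libraries for each of these genes, which the choice of the genes favoured too. ADG1 in green leaves was 0.11 ± 0.03 over wild type.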

How the results depend on the processing

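Under every alternative run, the number of the 33 genes called was within 1.5 times the main count. With 1 library left out at a time it was 28 to 30 in green, 31 to 33 in green-white and 31 in white leaves over wild type, 31 to 32 in green-white and 32 to 33 in white over green leaves, and 25 to 28 in white over green-white leaves. Of the single values under an alternative, 4007 kept direction and side of the threshold, 37 lost the call, 26 gained it and 34 changed sign. Values that changed sign with a library left out ranged over −0.0313 to 0.0205 for SS2 in green and −0.007 to 0.0356 for SPS1F in white leaves over wild type. Over green leaves the ranges were −0.0123 to 0.0381 for GBSS1 in green-white and −0.0284 to 0.0592 for AMY1 in white leaves. White over green-white leaves, they were −0.0609 to 0.0139 for PGM1, −0.017 to 0.0597 for SS2 and −0.0355 to 0.0142 for PHS2. Upper-quartile scaling turned BAM4 in green (−0.0003), SPS1F in white (−0.076), GBSS1 in green-white over green (−0.0092) and AMY1 in white over green leaves (−0.0109), and a fit of only the 6 libraries compared turned BAM4 in white over green-white leaves (−0.0009). Library totals alone, an alternative chosen after seeing the data, turned SS4 (0.173), PWD (0.0728), BAM3 (0.173) and SPS1F (0.0499) in green-white and PWD (0.24), BAM3 (0.0675) and AMY3 (0.0253) in white leaves over wild type. They also turned SS4 (0.0106) and SBE2.1 (0.091) in green-white over green, GWD1 (0.105), AMY3 (0.0969) and BAM9 (0.203) in white over green, and PGM1 (0.0219) and PHS2 (0.0372) in white over green-white leaves. By their construction they move the median of all genes, and the cause of the other changes was not tested. Deposited values per length were not used, so levels per kilobase have no second setting. No paired analysis was possible because the columns carry letters and the labels numbers, with nothing to tie them. Each of the 33 genes had at least 71 counts in each library.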
